A study of Mus musculus with 8 samples.

Results

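Levels of 10 immediate early genes (Fos, Fosb, Jun, Junb, Jund, Egr1, Ier2, Atf3, Dusp1 and Btg2) were followed through single-cell RNA libraries of mouse frontal isocortex. The genes were taken as a named list, chosen with earlier results of these data known, and make up 10 of the 18141 genes in either count table. All 10 were read in the Drd1a-tdTomato table, which has 17836 genes and 11494 cells. Atf3 was not analysed in the golli-τ-eGFP table, which has 15769 genes and 11382 cells, so 9 members were read there.

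Immediate early genes are transcribed within minutes of a stimulus, from factors already present in the cell and without new protein synthesis. Fos and Fosb pair with Jun, Junb or Jund to form the AP-1 transcription factor, and Egr1 is a zinc-finger transcription factor of the same fast response. Atf3 is a stress-induced factor of the ATF/CREB family, Ier2 a small nuclear protein, Dusp1 a phosphatase that switches off MAP kinases, and Btg2 an antiproliferative cofactor of mRNA deadenylation. In brain they are read as marks of neuronal activity, and enzymatic dissociation of tissue is also known to induce them, in glia as well as in neurons.

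The study compared cell types and gene expression at postnatal day 7 between mice whose Foxp2 was deleted by Emx1-Cre and controls. All animals carried Foxp2 flox/flox alleles on a C57BL/6J background. Controls had no Cre, and the conditional knockouts (cKO) also carried Emx1-Cre, which acts in the progenitors of cortical excitatory neurons and of many cortical glia but not in those of cortical interneurons. Cells were sorted for 1 of 2 reporters, the Drd1a-tdTomato BAC transgene of line 6 (D1Tom below) or golli-τ-eGFP (GTE below). Each sort had 2 control and 2 cKO libraries. In D1Tom both controls and cKO 1 were labelled female and cKO 2 male, and in GTE cKO 2 was labelled female and the others male. D1Tom control 1 and cKO 1 were prepared on 1 day and control 2 and cKO 2 on another, per the labels. Slices recovered in a solution with blockers of glutamate receptors and sodium channels (DL-AP5, DNQX and tetrodotoxin), and the tissue was digested with pronase before trituration and sorting. The labels do not say how many animals made a library, so p-values measure the spread between libraries.

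Proximal promoters were printed for 4 members to show members that rose together in 1 library with (Fos, Dusp1, Btg2) and without (Jun) the core of the cyclic AMP response element. RefSeq's promoter table for GRCm38.p6 held 8 of the 10 members, all but Egr1 and Ier2. The 200 bases before the start site are given 5′ to 3′ on the coding strand, with TGACG, or its reverse complement, in capitals. They lie at chr12:85473690-85473889 (plus strand) for Fos, chr4:95052223-95052422 (minus strand) for Jun, chr17:26508473-26508672 (minus strand) for Dusp1 and chr1:134079156-134079355 (minus strand) for Btg2. The genes themselves span 85473890 to 85477274 on chromosome 12 (Fos), 95049036 to 95052222 on chromosome 4 (Jun), 26505591 to 26508472 on chromosome 17 (Dusp1) and 134074865 to 134079155 on chromosome 1 (Btg2).
Fos: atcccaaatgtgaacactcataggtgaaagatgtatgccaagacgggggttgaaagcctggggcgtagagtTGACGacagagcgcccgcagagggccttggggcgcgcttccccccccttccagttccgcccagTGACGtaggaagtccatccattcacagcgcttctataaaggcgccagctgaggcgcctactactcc
Jun: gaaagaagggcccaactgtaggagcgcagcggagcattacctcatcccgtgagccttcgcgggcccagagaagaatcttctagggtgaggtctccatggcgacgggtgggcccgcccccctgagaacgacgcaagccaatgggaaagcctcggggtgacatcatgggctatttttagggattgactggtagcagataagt
Dusp1: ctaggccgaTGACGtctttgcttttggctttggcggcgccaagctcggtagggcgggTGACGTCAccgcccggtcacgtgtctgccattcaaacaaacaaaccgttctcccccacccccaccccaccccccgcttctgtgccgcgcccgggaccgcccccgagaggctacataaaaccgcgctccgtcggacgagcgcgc
Btg2: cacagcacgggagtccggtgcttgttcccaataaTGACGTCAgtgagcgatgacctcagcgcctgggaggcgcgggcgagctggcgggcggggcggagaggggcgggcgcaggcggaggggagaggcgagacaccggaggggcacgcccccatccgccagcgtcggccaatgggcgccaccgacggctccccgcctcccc

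A search for TGACG on both strands found a match in the same window of 6 of the 8 members (Fos, Fosb, Junb, Atf3, Dusp1 and Btg2) and in 15.7% of 32851 promoters. The palindrome TGACGTCA, which holds TGACG on both strands, lay in the windows of Dusp1 and Btg2 and in 1.47% of promoters. Fos had TATAAA beginning 33 bases before its start, a motif found in 9.96% of promoters. None of the 8 windows held TGANTCA, the AP-1 site, or a CArG box, found in 5.48% and 1.18% of promoters. Variants of these motifs and sites outside the 200 bases were not searched, nor were Egr1 and Ier2. These matches describe letters in the window and no binding was measured.

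D1Tom libraries had 2395 to 3206 cells and 27323298 to 36379194 counts, with medians of 7198 to 12815 counts per cell. GTE libraries had 1440 to 3948 cells and 4878370 to 6092396 counts, with medians of 1085.5 to 2982 counts per cell. Levels below are in CPM (counts-per-million), the counts of a gene scaled to the total counts of the cells summed. Foxp2, the targeted gene, was at 36.3 and 39.1 CPM in D1Tom control 1 and control 2, and at 26.5 and 19.4 CPM in cKO 1 and cKO 2. In GTE the values were 9.52, 46.9, 25.4 and 7.43 CPM in the same order, so there Foxp2 did not separate the genotypes. A 3′ tag may lie outside the deleted part of Foxp2, and its level then checks nothing. Barcodes found in more than 1 library of a sort numbered 97 in D1Tom, with 200 cells, and 63 in GTE, with 129 cells. Cells were put in classes by the counts of 8 markers per class, 7 of which were measured for interneurons, and no member is a marker. A class is named for its markers and may hold cells of a related type. The series describes its cells as neurons, but 20.8 to 28.9% of the cells of a D1Tom library carried the markers of astrocytes and 10.6 to 13.5% those of oligodendrocyte precursors. Excitatory neurons made up 6.91 to 24.6% and interneurons 6.85 to 12.4%. In GTE the astrocyte and precursor classes were the 2 with at least 30 cells in each library, and 7.45, 24.2, 84.9 and 14.0% of the cells of control 1, control 2, cKO 1 and cKO 2 fell into any class.

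In D1Tom the members were set apart by 1 library. Control 1 had the highest level of 9 of the 10 members over all cells, in a table where it was the highest library for 37.5% of the 14508 genes tested. The sum of the 10 members was 1640 CPM in control 1, against 413 CPM in control 2, 496 in cKO 1 and 433 in cKO 2. Control 2 therefore lay below both cKO libraries in this sum, and the other 3 libraries lay close together. Jund, an abundant member, was at 140 CPM in control 2 and 214 and 190 CPM in cKO. For 5 members (Fosb, Junb, Egr1, Ier2 and Atf3) control 2 lay above both cKO libraries. The margin was small for Fosb and Egr1, and Atf3 was near the limit of detection. How many of all genes were placed in this way was not counted.

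Fos, the AP-1 partner most used as a mark of recent stimulation, was at 539 CPM in control 1, 53.7 CPM in control 2, 61.9 CPM in cKO 1 and 50.8 CPM in cKO 2. Control 1 thus stood at 9.73 times the mean of the other libraries, while those 3 lay between 50.8 and 61.9 CPM. Fosb, its close paralogue, was at 70.9 CPM in control 1 and 2.64, 2.51 and 2.53 CPM in control 2, cKO 1 and cKO 2, a ratio of 27.7. Among 13231 genes with a mean of at least 1 CPM, Fosb ranked 1 and Fos 2 by the ratio of control 1 to the other libraries, taken on CPM plus 1. Of the 9 members at that level, 8 were among the first 100 genes.

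Among the Jun genes, Jun was at 243 CPM in control 1 and 65.5, 74.6 and 62.7 CPM in control 2, cKO 1 and cKO 2. Junb was at 92.5 CPM in control 1 and 25.6, 20.3 and 14.5 CPM in the same order. Jund, the member of the family known for steady expression, was at 277, 140, 214 and 190 CPM. Jun and Junb were 3.60 and 4.59 times as high in control 1 as in the mean of the others, and Jund 1.52 times. Jund was the exception to the grouping of the other 3 libraries, since control 2 was lower than both cKO libraries.

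Egr1 was at 161 CPM in control 1 and 52.0, 51.8 and 46.6 CPM in control 2, cKO 1 and cKO 2. Ier2 was at 117 CPM in control 1 and 32.1, 19.1 and 22.0 CPM in the others. Control 1 was 3.21 times the mean of the others for Egr1 and 4.80 times for Ier2, and no other library overlapped it. Dusp1, the MAP kinase phosphatase, was at 54.5 CPM in control 1 and 17.5, 15.2 and 17.5 CPM in the others, a ratio of 3.25. Btg2 was at 84.1 CPM in control 1 and 22.9, 36.6 and 26.2 CPM in the others, a ratio of 2.94. Atf3 was near the limit of detection in all 4 libraries, at 0.632, 1.06, 0.305 and 0.476 CPM, and was the 1 member for which control 2 was the highest.

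**Figure D1:**
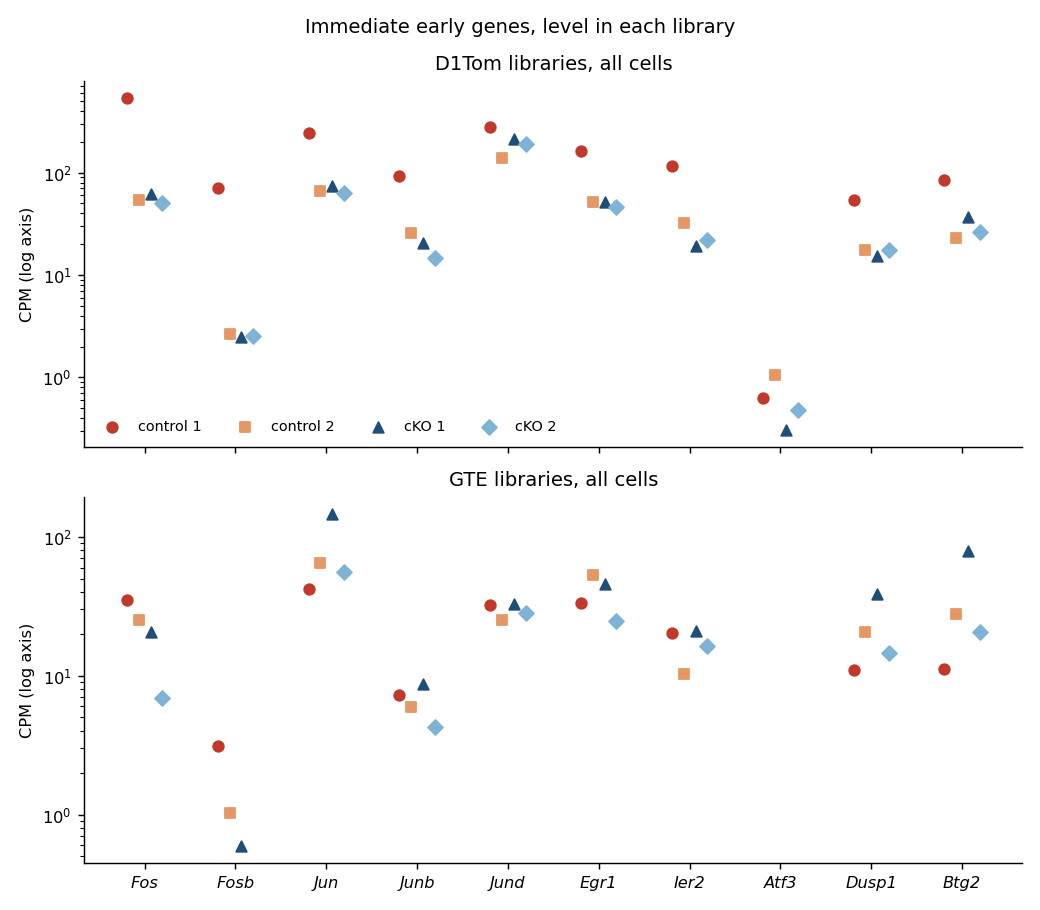
Level of each member in counts-per-million (log axis) over all cells of each D1Tom library (top) and GTE library (bottom), 1 point per library, with controls in red and orange and cKO in blue. In D1Tom control 1 is above the other 3 libraries for every member but Atf3; GTE cKO 2 had no Fosb count and has no point, and Atf3 was not analysed in GTE.

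Control 1 also led when cell makeup was held equal. When the 4 tested classes were given equal weight in each library, Fos was at 627 CPM in control 1 and 65.7, 67.0 and 46.3 CPM in control 2, cKO 1 and cKO 2. Markers of red blood cells summed to 75.6 CPM in control 1, with all 5 above 0, against 4903, 1530 and 875 CPM in the others. The median share of mitochondrial counts per cell was 3.09% in control 1 and 4.20 to 6.03% in the others. The part of these differences in the members' levels was not tested. In bulk sums, fewer cells of a type and less RNA per cell cannot be told apart, which is why the classes were taken singly below.

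The high library was a control, and the fitted change from control to cKO was below 0 for 9 of 10 members, Jund being the exception at 0.03, but 0 of 10 passed the test. edgeR's quasi-likelihood test called 0% of 14508 genes in this comparison. An unadjusted p under 0.05 was found for 3 members (Ier2, Junb and Fosb) and for 320 of all genes. Fos was at 297 ± 344 CPM (SD, n = 2) in controls and 56.3 ± 7.86 CPM (SD, n = 2) in cKO, a log2 fold change of -2.30 (SE 0.93) with an adjusted p of 0.998 by edgeR. Ier2 had the smallest p of the 10, with a log2 fold change of -1.76 (SE 0.56) and an adjusted p of 0.998 by edgeR. DESeq2 likewise called 0 of the 10, beside 20 of 14508 genes. By DESeq2, 5 members and 305 of all genes had an unadjusted p under 0.05.

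Each pair of libraries prepared on the same day gave a different answer. Within the first day's pair, the log2 ratio of cKO 1 to control 1 was -3.12 for Fos, -4.82 for Fosb, -2.18 for Junb and -2.62 for Ier2. Within the second day's pair the log2 ratios were -0.08 for Fos, -0.06 for Fosb, -0.81 for Junb and -0.55 for Ier2. Dusp1 differed by 0.0058 and Btg2 by 0.19 in the second pair, against -1.84 and -1.20 in the first. Each pair is 1 library against 1, so these values carry no test. Without control 2, edgeR called 4 members lower in cKO (Fos, Fosb, Ier2 and Junb), among 6 genes or 0.0410% of all tested, and without control 1 it called 0 members, with Fos at 0.08, Ier2 at -0.62 (SE 0.25), Junb at -0.55 (SE 0.23) and Jund at 0.53 (SE 0.22). Both cKO libraries lay below both controls for 5 of 10 members (Fosb, Junb, Egr1, Ier2 and Atf3). Control 2 was close to cKO for Fosb (2.64 CPM against 2.51 and 2.53) and Egr1 (52.0 against 51.8 and 46.6), and Atf3 was near the limit of detection. The share of all genes placed in this way was not counted, so the 5 are a description only.

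Fos was highest in control 1 in every tested class, with a smaller ratio in excitatory neurons. In astrocytes Fos was at 1725 CPM in control 1 and 195, 163 and 107 CPM in control 2, cKO 1 and cKO 2. In oligodendrocyte precursors it was at 568 CPM in control 1 and 42.8, 76.2 and 41.0 CPM in the others. Interneurons had 168 CPM in control 1 and 13.1, 16.3 and 18.6 CPM in the others. These 3 classes had ratios of control 1 to the mean of the others between 10.5 and 11.1. In excitatory neurons Fos was at 45.0 CPM in control 1 and 12.3, 12.4 and 18.9 CPM in the others, a ratio of 3.09. The difference in ratio between classes was not tested, since it rests on 1 library.

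In 2 classes too small for a test, control 1 was again the library with the most Fos. Microglia, with 7 to 33 cells per library, had 659 CPM in control 1 and 103, 38.1 and 54.7 CPM in the others. Cajal-Retzius cells, early-born neurons of the outermost layer with 29 to 51 cells per library, had 161 CPM in control 1 and 15.7, 4.92 and 15.1 CPM in the others. Within excitatory neurons, cells with upper-layer markers had Fos at 54.1 CPM in control 1 and 12.9, 17.3 and 13.8 CPM in the others. Cells with layer 6 corticothalamic markers had 37.8 CPM in control 1 and 14.2, 14.8 and 30.6 CPM in the others, and those with layer 5 pyramidal tract markers had 35.6 CPM in control 1 and 12.1, 5.07 and 18.04 CPM in the others. Fos was thus highest in control 1 in all 3 excitatory groups.

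The other members differed more between classes in how far control 1 stood above the rest. In astrocytes control 1 was the highest library for all 9 members with at least 1 CPM, where it was the highest for 37.0% of 12656 genes. In oligodendrocyte precursors it was the highest for 8 of 9, in excitatory neurons for 7 of 9 and in interneurons for 6 of 9, against 38.4, 27.1 and 27.6% of all genes in those classes. Egr1 in astrocytes was at 304 CPM in control 1 and 67.5, 50.2 and 50.0 CPM in the others, a ratio of 5.44. Egr1 in excitatory neurons was at 35.9 CPM in control 1 and 39.5, 31.1 and 40.2 CPM in the others, a ratio of 0.97. The excess of control 1 in Egr1 over all cells was therefore seen in glia and in interneurons (46.8 CPM against 17.04, 12.6 and 18.3), while in excitatory neurons control 1 lay between the other libraries.

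Ier2 had one of the widest spans, with astrocytes at 338 CPM in control 1 and 28.0, 18.9 and 17.2 CPM in the others, and excitatory neurons at 17.4 CPM against 9.22, 8.72 and 11.0. Its ratio was 15.8 in astrocytes and 1.81 in excitatory neurons. Junb was 10.9 times as high in control 1 in astrocytes, 8.53 times in interneurons and 1.66 times in excitatory neurons. Dusp1 was 6.41 times as high in astrocytes, at 158 CPM against 26.6, 29.0 and 18.5, and in interneurons its 15.6 CPM in control 1 lay inside the range of the others (6.99 to 21.9). Btg2 was 5.57 times as high in astrocytes and 0.379 times in interneurons, the lowest ratio of the tested pairs. Jund had ratios from 1.19 to 2.18 in the 4 classes. Fosb in excitatory neurons had 6.39 CPM in control 1 and 0.71, 0.13 and 0.33 CPM in the others, of which the last 2 are 1 count each.

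**Figure D2:**
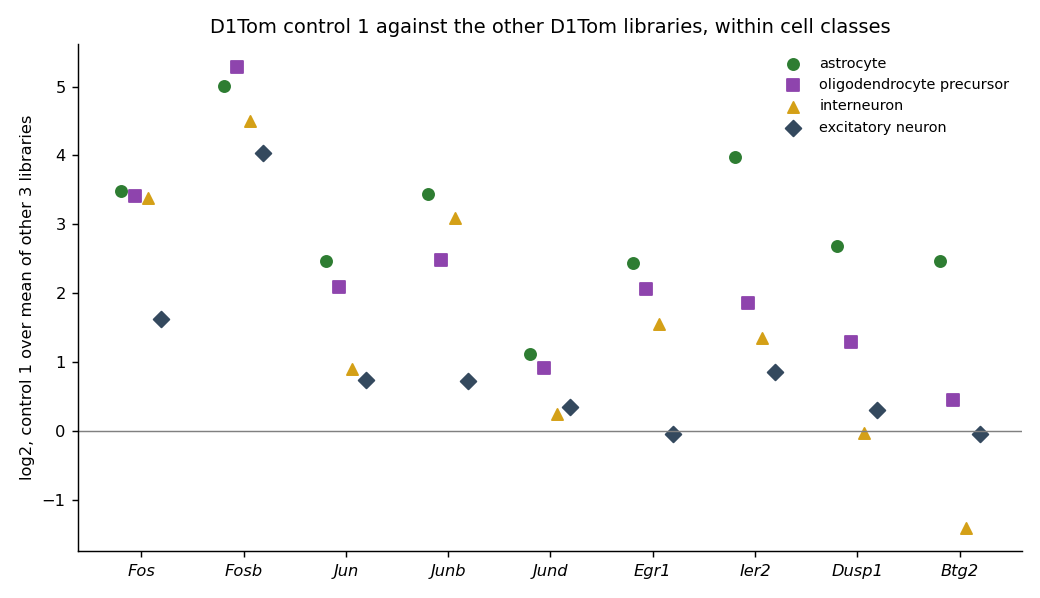
Level in D1Tom control 1 over the mean of the other 3 D1Tom libraries, on the log2 scale, for 9 members within 4 cell classes (Atf3 was too low to place). Astrocyte points lie between 1.12 for Jund and 5.01 for Fosb, and the lowest point of a member is that of excitatory neurons, except for Jund, Dusp1 and Btg2, where it is that of interneurons. Fosb in both neuronal classes rests on few counts.

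The excess of Fos in control 1 was carried by most astrocytes and not by a few cells. With every cell thinned to 2000 counts, 79.1% of control 1 astrocytes had a Fos count (exact 95% interval 76.2 to 81.8, 844 cells), against 27.1% in control 2 (23.2 to 31.2), 24.7% in cKO 1 (21.5 to 28.2) and 18.3% in cKO 2 (15.8 to 21.0). Without thinning the shares were 91.5, 55.1, 45.6 and 43.4%. The median astrocyte of control 1 had 1588 CPM of Fos, with quartiles of 685 and 2923, and the top 10% of astrocytes held 26.7% of its Fos counts, against 46.1 to 46.9% in the other libraries. Intervals cover counting error only and cells are not replicates.

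In oligodendrocyte precursors 54.5% of control 1 cells had a Fos count at 2000 counts per cell, against 7.11% in control 2, 11.4% in cKO 1 and 7.55% in cKO 2. In interneurons the share was 19.7% in control 1 and 1.83, 2.62 and 1.80% in the others. Excitatory neurons had the lowest share in control 1, at 7.18% (5.32 to 9.43), against 2.21, 1.16 and 2.02%. Free RNA in droplets can give such low shares, and the excitatory neurons had a median of 19975 counts in control 1, against 7888 for its astrocytes, before thinning. The thinned shares fell in the same order of classes as the CPM levels of control 1.

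**Figure D3:**
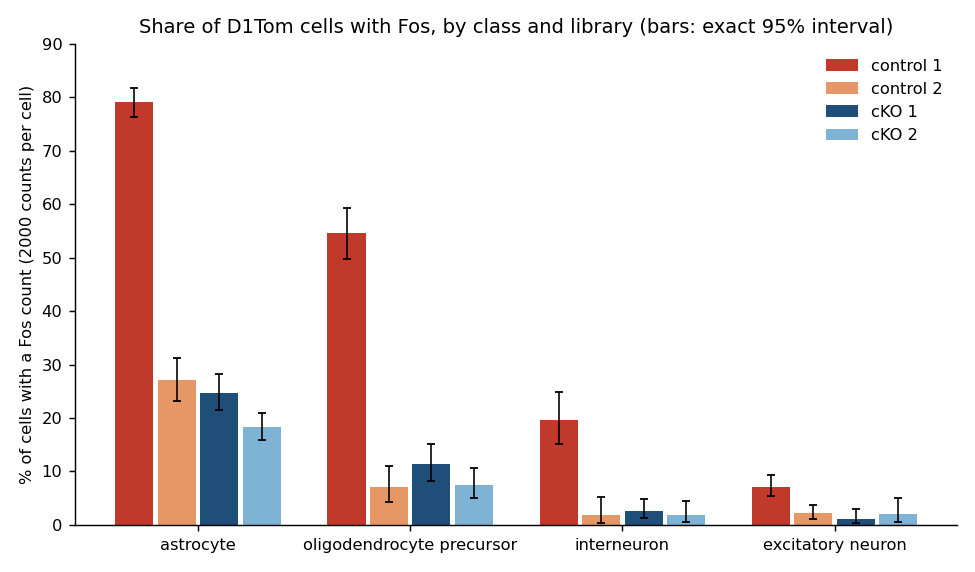
Share of D1Tom cells with at least 1 Fos count after every cell was thinned to 2000 counts, by class and library; error bars are exact 95% intervals for counting error. Control 1 is the highest library in each class, from 79.1% in astrocytes to 7.18% in excitatory neurons.

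Cells with Fos also had more of the other members. Among control 1 astrocytes, the 668 cells with a Fos count had a mean of 3.29 of the 9 other members after thinning, and the 176 without had 1.38. Control 2 astrocytes had 1.07 with Fos and 0.615 without, cKO 1 had 1.07 and 0.762, and cKO 2 had 0.840 and 0.633. Precursors of control 1 had 2.18 with Fos and 1.53 without. In the 3 other libraries the difference between astrocytes with and without Fos was smaller than in control 1. In control 1, astrocytes without a Fos count still had more of the other members than Fos-positive astrocytes of the other libraries.

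Differences between cell classes were tested inside libraries, with the library as a term, so that a shift common to all classes of control 1 does not enter. A shift of control 1 that differs between classes does enter. Astrocytes had the highest fitted levels of most members. edgeR's quasi-likelihood test called 8 of the 9 members tested higher in astrocytes than in the mean of the other 3 classes and 0 lower, where it called 29.3% of 12359 genes higher and 28.8% lower. Atf3 was too low to be tested in any class. Fosb had a log2 fold change of 3.30 (SE 0.21) with an adjusted p of 4.73e-08, and Fos one of 3.02 (SE 0.22) with an adjusted p of 1.53e-07, both by edgeR. Btg2 was higher by 2.495 (SE 0.46), Dusp1 by 1.95 (SE 0.34), Jun by 1.70 (SE 0.23), Ier2 by 1.49 (SE 0.37), Junb by 1.48 (SE 0.32) and Egr1 by 0.86 (SE 0.26) on the log2 scale. Jund, at 0.13 (SE 0.12), did not pass, and without control 1 its difference was -0.04. The astrocyte log2 fold changes without control 1 were 2.95 for Fosb, 2.86 for Fos, 1.59 for Btg2 and 1.34 for Jun. They were 1.25 for Dusp1, 1.10 for Junb, 0.54 for Ier2 and 0.52 for Egr1.

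Fos, Fosb and Jun were highest in astrocytes in each of the 4 D1Tom libraries. Fos astrocyte levels were 15.8 times the lowest class in control 2, 13.1 times in cKO 1 and 5.73 times in cKO 2, and 38.4 times in control 1. For these members astrocytes thus led also in the libraries without the high overall level, while the order of the lower classes differed between libraries. Ier2 was highest in precursors in cKO 1 and cKO 2, at 45.9 and 21.5 CPM against 18.9 and 17.2 CPM in astrocytes. Without control 1, its log2 fold change was 1.16 in precursors and 0.54 in astrocytes. In cKO 2, Dusp1 and Btg2 were highest in interneurons, at 21.9 and 47.2 CPM. Without control 1, 20 of the 23 calls over the 4 classes were kept in direction and threshold, and the 3 lost were Egr1 in excitatory neurons and Fosb in interneurons and in oligodendrocyte precursors.

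Excitatory neurons had lower levels of most members. edgeR called 7 of 9 members lower there and 0 higher, where 33.2% of genes were lower and 29.8% higher. Fosb fell by 3.06 (SE 0.31), Fos by 2.36 (SE 0.30), Jun by 2.07 (SE 0.29), Btg2 by 2.06 (SE 0.57), Ier2 by 1.67 (SE 0.43), Dusp1 by 1.08 (SE 0.39) and Egr1 by 0.89 (SE 0.30) on the log2 scale against the other classes. Junb, at 0.24 (SE 0.36), and Jund, at -0.10 (SE 0.12), did not pass. Junb was the member for which excitatory neurons ranked highest in both cKO libraries, at 26.7 and 14.6 CPM, while in the controls astrocytes did. Without control 1, Junb was called higher in excitatory neurons.

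Interneurons had 4 of 9 members lower and 0 higher, where 17.6% of genes were lower and 20.0% higher. Egr1 fell by 2.03 (SE 0.33), Fosb by 1.72 (SE 0.32), Fos by 1.42 (SE 0.28) and Junb by 1.18 (SE 0.40) on the log2 scale against the other classes. Jun (-0.67), Ier2 (-0.83), Dusp1 (-0.07), Btg2 (0.04) and Jund (0.14) did not pass. Egr1 was at 31.1 to 40.2 CPM in excitatory neurons and 12.6 to 18.3 CPM in interneurons of the 3 libraries other than control 1. In control 1 the order was the other way, with 35.9 CPM in excitatory neurons and 46.8 CPM in interneurons, and these classes were not tested against each other.

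Oligodendrocyte precursors had 4 of 9 members higher and 0 lower, where 17.8% of genes were higher and 16.4% lower. Egr1 was higher by 2.07 (SE 0.26) on the log2 scale with an adjusted p of 4.83e-05 by edgeR, and Fosb by 1.48 (SE 0.24), Jun by 1.04 (SE 0.24) and Fos by 0.77 (SE 0.25). Egr1 was at 525 CPM in control 1 precursors and 110, 174 and 92.8 CPM in control 2, cKO 1 and cKO 2. Precursors were the class with the most Egr1 in all 4 libraries, whereas Fos, Dusp1 and Btg2 were higher in astrocytes than in precursors in all 4. Dusp1 in precursors was at 22.6 CPM in control 1 and 9.43, 6.71 and 11.5 CPM in the others. Over the 4 classes, 23 of 36 member and class pairs passed, and the count was 22 without control 1, 20 without control 2, 17 without cKO 1 and 23 without cKO 2.

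**Figure D4:**
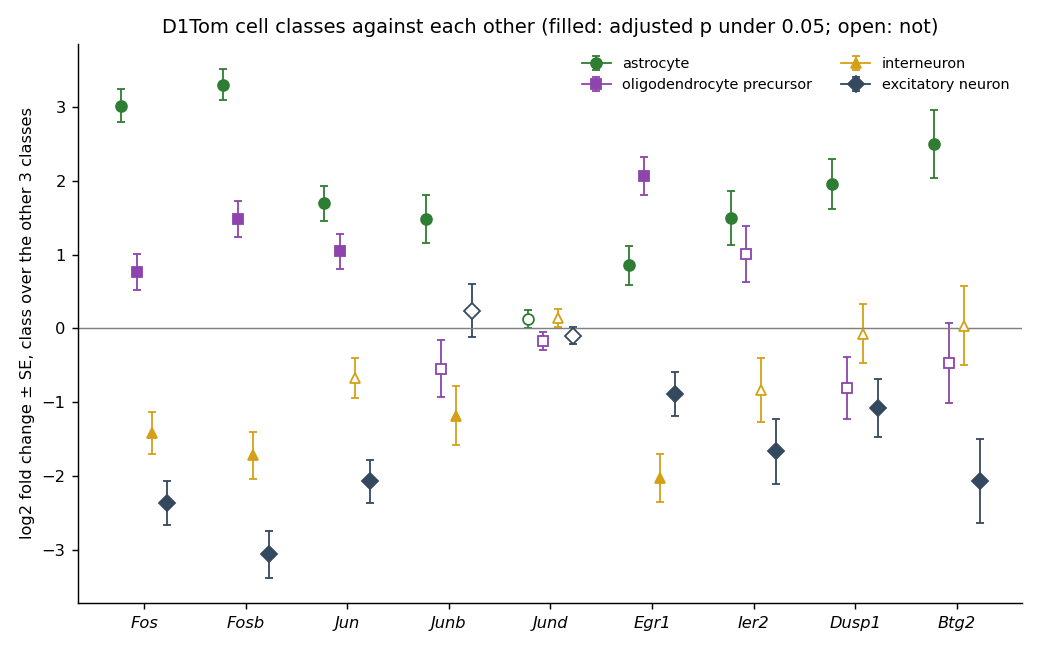
Log2 fold change of each D1Tom class over the mean of the other 3 classes, with its SE from edgeR, for 9 members; filled symbols passed an adjusted p of 0.05 and open ones did not. Astrocyte points are the highest for all members but Egr1, where oligodendrocyte precursors are at 2.07, and Jund, where no class passed.

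Within single classes, edgeR called 0 members between cKO and control in astrocytes, excitatory neurons, interneurons and oligodendrocyte precursors, where it called 0% of all genes in each. At an unadjusted p under 0.05 there were 7 of 9 members in astrocytes, 2 of 8 in interneurons, 1 of 8 in precursors and 0 of 8 in excitatory neurons. Over all genes the counts at this p were 244 of 12297, 1114 of 11373, 54 of 11403 and 202 of 12617 in the same order. In astrocytes Junb had a log2 fold change of -3.09 (SE 0.80) and Fos one of -2.78 (SE 0.87), both with an adjusted p of 0.998 by edgeR. In astrocytes the log2 ratio of cKO to control was below 0 in both same-day pairs for Fos, at -3.40 and -0.87, and for Junb, at -3.66 and -1.52. Fos was at -2.90 and -0.06 in precursors, at -3.36 and 0.51 in interneurons and at -1.86 and 0.62 in excitatory neurons. For Fos the second pair thus showed little or no decrease outside astrocytes. Junb in that pair was at -0.52 in interneurons, -0.35 in excitatory neurons and 0.16 in precursors.

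With the preparation day as a replicate block, edgeR called 12 member and class pairs. Astrocytes had Fosb and Junb lower in cKO, among 0.138% of genes. Interneurons had Fos, Junb, Egr1 and Ier2 lower and Btg2 higher, among 10.9% of genes, and precursors had Fos, Jun, Egr1, Junb and Ier2 lower, among 0.272%. Excitatory neurons had 0 of 8, among 0.856%. The same sums without control 2 gave 9 of 9 members lower in astrocytes (6.05% of genes) and 6 in precursors (0.324%). Without control 1, 0 members were called in any class. Fos was then at 0.41 in interneurons, 0.35 in precursors and 0.30 in excitatory neurons, but at -0.56 in astrocytes, where Junb was at -1.19 (SE 0.31) and Ier2 at -0.65 on the log2 scale. DESeq2 called 1 pair, Btg2 higher in cKO interneurons, among 112 of 11373 genes called there, of which 109 were higher.

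Btg2 in interneurons was higher in both cKO libraries than in both controls. Its level was 11.6 CPM in control 1 and 5.68 CPM in control 2, against 39.1 and 47.2 CPM with cKO. edgeR gave a log2 fold change of 2.30 (SE 0.38), an unadjusted p of 0.000606 and an adjusted p of 0.326, against an adjusted p of 1.60e-07 with the replicate block and 0.000805 by DESeq2. It was 1.75 within the first pair and 3.06 within the second. In the other classes Btg2 did not separate the genotypes. It was at 8.68 and 10.6 CPM against 9.12 and 6.97 CPM in excitatory neurons, and at 28.0 and 15.6 CPM against 33.2 and 12.3 CPM in precursors. Astrocytes had 285 and 47.0 CPM against 74.4 and 32.4 CPM, lower in cKO within both same-day pairs.

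Some genes of interneuron subtypes were, like Btg2, higher in both cKO libraries, and others were not. Sp8, a transcription factor of interneurons of the caudal ganglionic eminence and of olfactory bulb neuroblasts, was at 84.2 and 74.7 CPM in control interneurons and 174 and 193 CPM in cKO interneurons. Sp9, its close relative, was at 77.2 and 56.3 CPM against 169 and 209 CPM. Lhx6, a factor of interneurons of the medial ganglionic eminence, was at 27.2 and 21.8 CPM against 32.9 and 7.98 CPM and did not separate the genotypes. These genes were looked up after the Btg2 values were seen. Btg2 was higher in cKO both in interneurons with a Sp8 or Sp9 count, at 12.6 and 6.71 CPM in controls and 48.6 and 46.3 CPM in cKO, and in those without, at 10.5 and 4.56 CPM against 22.8 and 51.5 CPM. A cell without a count may still express Sp8 or Sp9, and such cells numbered 52 in cKO 2. The part of interneuron subtypes in the Btg2 difference was not tested.

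In GTE the members showed no library like D1Tom control 1 over all cells. Its Fos level was 35.1 CPM in control 1 and 25.2 CPM in control 2, against 20.7 CPM for cKO 1 and 6.90 CPM for cKO 2, so both controls lay above both cKO libraries. edgeR put the log2 fold change at -1.70 (SE 0.54), with an unadjusted p of 0.00197 and an adjusted p of 0.603. edgeR called 0 of the 8 members tested and 0.0332% of 12042 genes. Fos was the 1 member with an unadjusted p under 0.05, which 629 of all genes had. DESeq2 also called 0 of the 8, with 1 member and 398 of all genes at an unadjusted p under 0.05. Fosb, at 3.12, 1.02, 0.59 and 0 CPM in the same order, was too low to test.

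Jun was at 42.0 and 64.4 CPM in GTE controls and 146 and 55.9 CPM in cKO 1 and cKO 2, and Btg2 at 11.2 and 27.9 CPM against 79.1 and 20.7. Dusp1 was at 11.0 and 20.7 CPM against 38.7 and 14.5. For these 3 members cKO 1 was the highest library, as it was for 64.4% of 12720 genes with at least 1 CPM. This library also had the most cells in a class (84.9%) and the deepest cells, whose part in these levels was not tested. Egr1 was at 33.2 and 53.1 CPM in controls against 45.6 and 24.8. Ier2 was at 20.4 and 10.3 CPM against 21.1 and 16.3, Junb at 7.22 and 5.94 against 8.68 and 4.24, and Jund at 32.5 and 25.2 against 32.5 and 28.5. None of these separated the genotypes.

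Taken by class, GTE control 1 did stand above the other GTE libraries. In its 166 astrocytes Fos was at 265 CPM, against 55.5 CPM in control 2, 38.5 in cKO 1 and 23.0 in cKO 2. In its 88 precursors Fos was at 165 CPM, against 48.8, 12.5 and 18.5 CPM. These levels rested on few cells, since the median cell of both classes had 0 Fos counts in each GTE library. The top 10% of astrocytes held 100% of the Fos counts in each. For precursors this share was 83.9% in control 1 and 100% in the others. Astrocyte Egr1 was at 122 CPM in control 1 and 39.7, 18.4 and 27.6 CPM in the others, and astrocyte Ier2 at 95.0 CPM and 10.6, 12.1 and 15.0 CPM. Control 1 was the highest library for 7 of 9 members in astrocytes and 5 of 8 in precursors, where it was the highest for 23.1 and 23.2% of genes. Jun and Btg2 in astrocytes were not among them, at 125 and 59.99 CPM in control 1 and 149 to 176 and 63.5 to 128 CPM in the others. Cells of any class made up 7.45% of control 1, and its cells of no class had Fos at 6.27 CPM. Red blood cell markers summed to 2306 CPM in this library, 0.205 in control 2, 0 in cKO 1 and 5384 in cKO 2, and their part in the levels over all cells was not tested. At 500 counts per cell, 3.61% of its astrocytes had a Fos count (exact 95% interval 1.34 to 7.70), which overlaps the interval of control 2 (1.09 to 3.85).

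Astrocytes were tested against oligodendrocyte precursors alone in GTE, where 7 members passed the filter on low counts. In D1Tom each class was tested against the mean of the other 3, so the fold changes of the sorts are different measures. edgeR called 3 higher in astrocytes, where it called 13.7% of 8421 genes higher, and 2 lower, where it called 10.5%. Dusp1 was higher by 2.35 (SE 0.32), Btg2 by 2.02 (SE 0.28) and Fos by 0.97 (SE 0.27) on the log2 scale, and Egr1 fell by 1.55 (SE 0.25) and Ier2 by 0.99 (SE 0.35). GTE precursors of control 1 had Egr1 at 221 CPM and those of control 2 at 183 CPM, against 95.3 CPM for cKO 1 and 85.6 CPM for cKO 2, above the astrocytes of the same library in all 4. Dusp1 in GTE astrocytes was at 97.5, 55.5, 70.6 and 62.2 CPM in the same order, and in precursors at 14.7, 7.32, 23.4 and 13.4 CPM. The Fos call was lost without control 1, without cKO 1, without the 5% of cells with the most counts and with a lower count share for a class. The Ier2 call was lost without control 2, without either cKO library, without those cells, with 1 more marker required and by DESeq2.

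**Figure D5:**
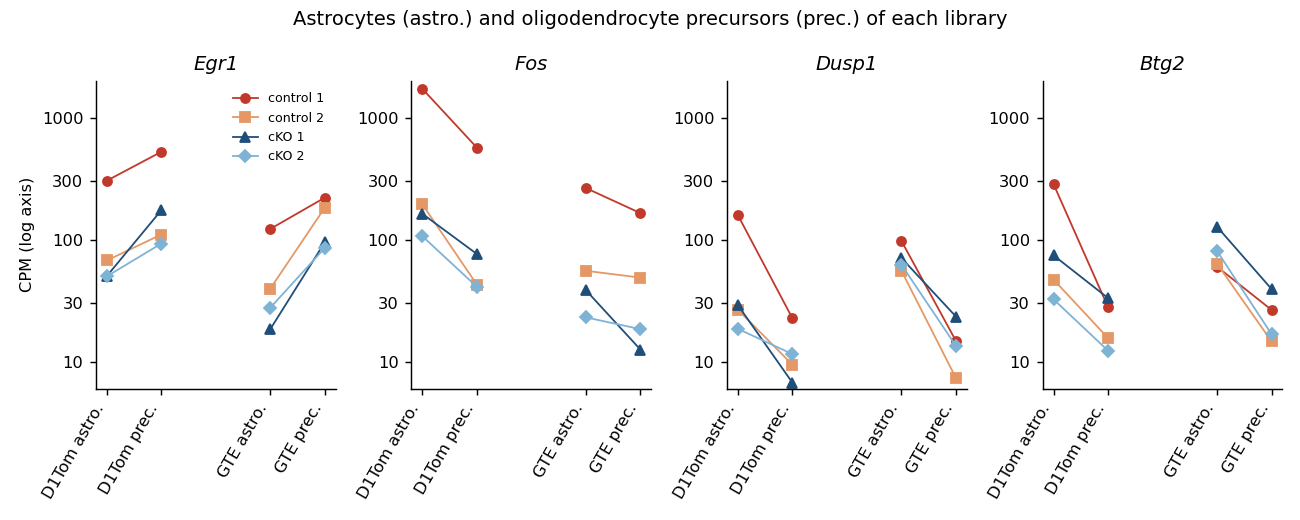
Level of Egr1, Fos, Dusp1 and Btg2 in astrocytes and oligodendrocyte precursors of each library, in counts-per-million on a log axis; lines join the 2 classes of 1 library. Egr1 is higher in precursors and the other 3 genes are higher in astrocytes in all 8 libraries.

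The test of whether the cKO difference of a member differed between the sorts called 0 of 9 members and 0% of 14026 genes. Its values ran from -0.37 (SE 0.57) for Jund to 1.58 (SE 0.81) for Btg2 on the log2 scale, GTE minus D1Tom, with adjusted p-values of at least 0.941 by edgeR. At an unadjusted p under 0.05 there were 0 members by edgeR and 1 by DESeq2, beside 452 and 541 of all genes. DESeq2 also called 0 members, beside 6 genes.

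Other genes of the pathway were counted from fixed lists in D1Tom. Of 35 other immediate early genes, 34 were tested, 0 were called between genotypes, and control 1 was the highest library for 25, or 73.5%. Their median log2 ratio of control 1 to the others was 0.32, against 1.75 for the members and 0.09 for all genes tested. Dusp6, a phosphatase of MAP kinases, was at 98.0 CPM in control 1 and 57.8, 50.1 and 53.6 CPM in control 2, cKO 1 and cKO 2, and the polo-like kinase gene Plk2 at 147 CPM and 111, 106 and 68.3 CPM. Klf6, a zinc-finger factor, was at 146 CPM in both controls and 125 and 104 CPM in cKO. The excess of control 1 was smaller over these genes than over the members. Both lists were chosen with earlier results of these data known, so this difference is a description only.

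Upstream regulators, the kinases and factors that act on the members' promoters, had control 1 as the highest library for 4 of 18 genes, with a median log2 ratio of -0.06. Later activity genes had 3 of 8, with a median of 0.16, and Homer1, a synaptic scaffold gene among them, was at 104 and 114 CPM for control 1 and control 2 and 100 and 86.7 CPM with cKO. Heat shock genes, which respond to protein damage, had 5 of 12, with a median of 0.05. Their most abundant gene, Hsp90ab1, was at 920, 909, 785 and 810 CPM in the same order. None of the genes of these 3 lists was called between genotypes, and control 1 was the highest for 22.2, 37.5 and 41.7% of them, beside 37.5% of all genes.

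Between classes, the other immediate early genes were called in both directions. In astrocytes 13 of 31 were called higher and 8 lower (median 0.23), beside 8 and 0 of 9 members (median 1.70). In excitatory neurons 14 were higher and 9 lower (median 0.22), beside 0 and 7 members (median -1.67). In interneurons 3 were higher and 9 lower (median -0.52), beside 0 and 4 members (median -0.83), and in precursors 6 were higher and 9 lower (median -0.24), beside 4 and 0 members (median 0.77). The shares of all genes called in these classes are those given with the members' counts above. Later activity genes were higher in excitatory neurons for 6 of 8 (median 1.42). These medians are log2 fold changes of a class over the other classes, and all genes tested had medians between -0.05 and 0.02.

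The genes most like the members over the 16 sums of 4 classes and 4 D1Tom libraries were listed by Pearson's r with the mean profile of 9 members. The 10 highest among 9575 genes were Pdcd10 (0.966), Taf7 (0.941), Emc3, Yipf3, Fez1, Rab9, Sdc2, Pigc, Ccnl1 and Itm2b (0.915). Pdcd10 in astrocytes was at 182 CPM in control 1 and 92.3, 111 and 85.7 CPM in the others, and Itm2b at 1467 CPM and 597, 452 and 426 CPM. The sums share libraries and depth, so r is given as a description. Among members, Fos and Fosb had r = 0.961 and Fos and Jun r = 0.936, while Fos and Jund had r = 0.471.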

How the data were processed

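Single cells of 8 libraries (10x Chromium 3′) were measured. The authors deposited whole-number UMI counts per gene and cell, and for each cell the fraction of mitochondrial counts. Cell Ranger 2.1.1, STAR 2.5.2b, UMI-tools 0.5.4 and featureCounts are named per the submitters' processing notes, without roles. The cell table gave the library of each cell, and every cell in it was used. The counts had library-specific ratios of the value 2 to the value 1 (0.307 to 1.69), so no Poisson intervals are given. Genes of these tables that lie on other strands or overlap could share reads, since strand use is not given in the sources used here.

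A cell was positive for a class with at least 3 detected markers and a summed count share of at least 1.5 times the sort's mean, and was assigned if positive for 1 class only. The marker lists were set first and these thresholds after the marker counts were seen. No doublets were called. Cells positive for several classes were left out of classes, and the 5% of cells with the most counts were left out as an alternative. Counts were summed per library and class. Classes with at least 30 cells in each library were tested with edgeR 4.0.16 in R 4.3.3 (quasi-likelihood test, TMM factors, filterByExpr, Benjamini-Hochberg adjusted p under 0.05 over all genes), class contrasts with library as a term. DESeq2 1.42.0 was an alternative. Shares of cells were taken after thinning to 2000 (D1Tom) or 500 (GTE) counts, with exact Clopper-Pearson intervals. The scripts were tested on simulated data.

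In D1Tom, libraries with the same number were prepared on the same day per the labels, and their deviations from the group means correlated at 0.5 over 14508 genes, so the number is a block there. Every member was named. From the other lists the genes with the highest mean CPM could be named, and the 10 genes most like the members had a mean of at least 10 CPM. The members and lists were chosen with earlier results of these data known. Alternatives were another normalization, no filter on low counts, the block, each library left out, the class rule and the cells summed. The last of these, without barcodes found in several libraries, and a lower count share for a class were chosen after seeing the data.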

Additional observations from a re-analysis of the deposited data

How the results depend on the processing

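Each group had 2 libraries, and a library left out leaves 1 in its arm, which was then assumed to vary like the others. Class membership near the threshold, 3′ tags and the shallow GTE cells limit the levels. The members with few counts (Atf3, and Fosb in neurons) had too little depth for a direction. Causes of the changes below were not tested.

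Of 396 alternatives for members between D1Tom classes, 361 kept direction and side of the threshold, 13 lost the call, 9 gained it and 13 reversed. None of the reversed values belonged to a call. Btg2 in interneurons was at -0.047 by DESeq2, -0.024 with no filter, -0.18 with 1 more marker, -0.21 without the 5% of cells with the most counts, -0.074 with a lower count share, and from -0.77 to 0.49 with 1 library left out. With 1 library left out, Dusp1 in interneurons ran from -0.44 to 0.27, and Jund from -0.038 to 0.24 in astrocytes, -0.0875 to 0.049 in excitatory neurons and -0.057 to 0.22 in interneurons. Jund in excitatory neurons was at 0.0079 without the 5% of cells with the most counts. In GTE, astrocytes against precursors gave 3 to 4 calls with 1 library left out and 3 without the 5% of cells with the most counts, and 67 of 76 alternatives stayed as reported.

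For cKO against control over all D1Tom cells, 0 to 4 members were called with 1 library left out. The ranges were -3.15 to 0.0755 for Fos, -1.72 to 0.073 for Jun, -1.32 to 0.45 for Btg2 and -0.34 to 0.53 for Jund, which was at -0.022 without the 5% of cells with the most counts. In GTE the ranges were -0.088 to 0.60 for Dusp1, -0.68 to 0.68 for Ier2 and -0.62 to 0.11 for Jund, and Ier2 was at 1.02 without the 5% of cells with the most counts. Within D1Tom classes, members called numbered 12 with the replicate block, 5 with no filter on low counts, 1 by DESeq2 and 0 to 15 with 1 library left out. Fos ran from -1.56 to 0.30 in excitatory neurons, -3.23 to 0.41 in interneurons and -3.14 to 0.35 in precursors, but from -3.65 to -0.56 in astrocytes.

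The replicate block changed no other call. Over all D1Tom cells it called 0 members. The labels' batch text for GTE repeats that of D1Tom and does not match the GTE sexes, so whether GTE libraries with the same number share a day is unknown. Their deviations correlated at -0.348 over 12042 genes, the block calling 0 members there and 0 genes, against 4 genes without it. The difference between the sorts for Fos was -0.16 with the replicate block and ran from -1.78 without D1Tom control 1 to 1.44 without D1Tom control 2.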
